A study of Mus musculus with 16 samples.

Results

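The cells described here were the fibroblasts of the mouse thoracic aorta in which at least 2 of the 4 genes Foxd1, Col11a1, Adamtsl2 and Angpt4 had been read. Single cells had been sequenced in droplets with molecular barcodes (UMIs), so that copies of 1 RNA molecule are counted once. The cells kept had over 600 and under 6000 detected genes, a total of over 2000 and under 50000 UMIs, and less than 25% of those from mitochondrial genes. It was taken as a fibroblast when it held at least 5 UMIs of Dcn, which encodes the matrix proteoglycan decorin, and more of Dcn than of Myh11, the smooth muscle myosin heavy chain. Of 50858 kept cells 36066 were fibroblasts, and 6105 of those held at least 1 UMI of 2 or more of the 4 gate genes, which was 16.9% of fibroblasts. These 6105 cells are called gated cells, and the remaining 29961 are called other fibroblasts. The gate is a line drawn through counts and not the border of a cluster: 18629 fibroblasts held none of the 4 genes, 11332 held 1, 4626 held 2, 1276 held 3 and 203 held all 4. Cells just outside the gate, with 1 gate gene, had a median of 9013.5 UMIs and a library median of 27.5 CPM (UMIs of a gene per 1000000 UMIs of the class and library) of Foxd1, and cells just inside it, with 2, had 11050 UMIs and 116 CPM.

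The 16 libraries came from 1 male mouse each, of strain 129S6/SvEv, and covered the aorta from the root to the left subclavian branch. Cells were released by enzymatic digestion for 30 or 60 min and sorted as intact living cells. All mice carried Myh11-CreER, a tamoxifen-inducible recombinase driven by a smooth muscle promoter on the Y chromosome, and all received tamoxifen from 6 weeks of age. Mice with floxed Smad3 on both alleles are called Smad3SmKO, and the controls Smad3+/+. Libraries were made 10 weeks after deletion from 2 Smad3+/+ and 2 Smad3SmKO mice, all in batch 4 with the 60 min digestion. The 18-week mice numbered 5 Smad3+/+ and 7 Smad3SmKO, in batches 1, 2 and 3 with 30 min of digestion and batches 5 and 6 with 60 min. Batch 5 held Smad3SmKO libraries only. The labels gave a Myh11-GFP tracer for 7 libraries, 2 of them Smad3+/+ of 10 weeks, 2 Smad3+/+ of 18 weeks and 3 Smad3SmKO of 18 weeks. The driver was chosen to target smooth muscle cells, so fibroblasts are not the cells in which the design sets out to delete Smad3.

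Smad3 encodes a transcription factor that TGF-beta receptors activate. Foxd1 is a forkhead transcription factor best known from the stroma of the developing kidney. Col11a1 encodes a chain of the fibrillar collagen XI, which sets fibril thickness in cartilage and tendon. Adamtsl2 is a secreted glycoprotein without protease activity that binds fibrillin microfibrils and is linked to the control of TGF-beta. Angpt4 encodes angiopoietin 4, a ligand of the receptor tyrosine kinase Tie2, and Ptn encodes the heparin-binding growth factor pleiotrophin. Aortic fibroblasts lie mostly in the adventitia, the outer layer of the wall, where they make collagen and other matrix and release factors that act on vessels, nerves and immune cells.

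Libraries held 12539539 to 52843031 UMIs each, and their gated cells 112248 to 12199724. A pair of libraries labelled Smad3SmKO of 18 weeks stood apart. Replicate 7 had only 196 fibroblasts and 4 gated cells, too few for sums over gated cells. So 15 libraries entered every comparison of gene levels that used gated cells, and all 16 the genotype fit of other fibroblasts alone. Replicate 6 had 5505 fibroblasts with a median of 6442 UMIs, while the other libraries of that age had medians of 9984.5 to 26326. The 10-week libraries were shallower still, with medians of 4318.5 to 5524 UMIs per fibroblast. Of the barcodes of kept cells 315 occurred in more than 1 library, and 1 of those was shared between gated cells. Smad3 in kept cells with at least 5 UMIs of Myh11 and more of it than of Dcn lay between 2.83 and 9.89 CPM in Smad3+/+ libraries of 18 weeks and between 4.04 and 17.3 CPM in those labelled Smad3SmKO. A transcript without the floxed exons can still be counted, so this whole-gene count did not check the deletion, and genotypes were taken from the labels alone.

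The gate genes were levels that chose the cells, so they are given as a description. Adamtsl2 was the most common of the 4 and was held by 91.0% of gated cells, Foxd1 by 68.3%, Angpt4 by 39.4% and Col11a1 by 28.8%. Foxd1 (chr13:98354242-98359305, plus strand, mm10) stood at 108 to 189 CPM in the gated cells of the 15 libraries, with a median of 147, and at 6.62 to 18.4 CPM in other fibroblasts, with a median of 11.3. Col11a1 (chr3:114030540-114220718, plus strand) had a median of 57.3 CPM against 5.22, Adamtsl2 (chr2:27079379-27108981, plus strand) of 265 against 65.3, and Angpt4 (chr2:151911210-151945337, plus strand) of 81.9 against 6.20. These 4 genes belonged to fibroblasts, which held 98.2% to 99.7% of all their UMIs in kept cells. Among 14792 kept cells that were not fibroblasts, with a median of 6882.5 UMIs, only 17 (0.115%) met the same gate, while gated cells had a median of 11424 UMIs and other fibroblasts of 7776.

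The 4 genes had been chosen together from these data, so their joint occurrence is given as a description and not as evidence for a group. When a gate gene was left out and its level compared between fibroblasts holding at least 2 of the other 3 genes and those holding none, Foxd1, Adamtsl2 and Angpt4 were higher in the first in 15 of 15 libraries and Col11a1 in 14. Foxd1 then had a median of 80.8 CPM against 17.9 and Angpt4 of 39.2 against 9.57. The order was the same in as many libraries when the left-out gene was read from cells thinned to 2000 UMIs. The other 3 genes, which set the classes, were not thinned. Cells with both genes of the group's name were a minority: 823 of the 6105 held both Foxd1 and Col11a1. The commonest combination was Foxd1 with Adamtsl2 and neither of the others (2411 cells, 39.5% of gated cells), followed by Adamtsl2 with Angpt4 (999 cells) and Col11a1 with Adamtsl2 (687 cells).

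Cells that entered by different pairs differed in other genes, as the plot of gate pairs shows. These genes were picked after their values had been seen, and the values are a description over 15 libraries with 10 to 399 cells per pair and library. Cells with Col11a1 and Adamtsl2 carried transcripts typical of cartilage and tendon. Chad, the cartilage protein chondroadherin, had a median of 361 CPM in them, against 13.1 CPM in cells with Foxd1 and Adamtsl2 and 12.6 CPM in cells with Adamtsl2 and Angpt4, and was higher in the Col11a1 pair in 13 of 15 libraries in either comparison. Thbs4, thrombospondin 4 of tendon matrix, had a median of 158 CPM in the Col11a1 pair and of 0 CPM in both other pairs. The Wnt inhibitor Wif1 had 308 CPM against 17.9 and 6.45, and Postn, which encodes periostin of valves and healing tissue, had 462 CPM against 87.4 and 111. Fibroblasts with none of the gate genes were close to the Col11a1 pair in Wif1 and Postn, at medians of 293 and 513 CPM, but not in Chad or Thbs4, at 23.4 and 8.74 CPM.

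The pair with Angpt4 had its own profile. The lymphatic growth factor Vegfd had a median of 213 CPM there against 90.2 CPM in the Foxd1 pair and was higher in it in 14 of 15 libraries, and F3, the tissue factor that starts coagulation, had 797 CPM against 518 and was also higher in 14 of 15. Dio2, the deiodinase that activates thyroid hormone, went the other way, at 59.5 CPM against 167 CPM in the Foxd1 pair, which was higher in 15 of 15 libraries. In the 1479 cells with 3 or 4 gate genes Chad was at 27.5 CPM, Wif1 at 13.8, Postn at 33.3 and Thbs4 at a median of 0, and Vegfd was at 213 CPM.

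**Figure D1:**
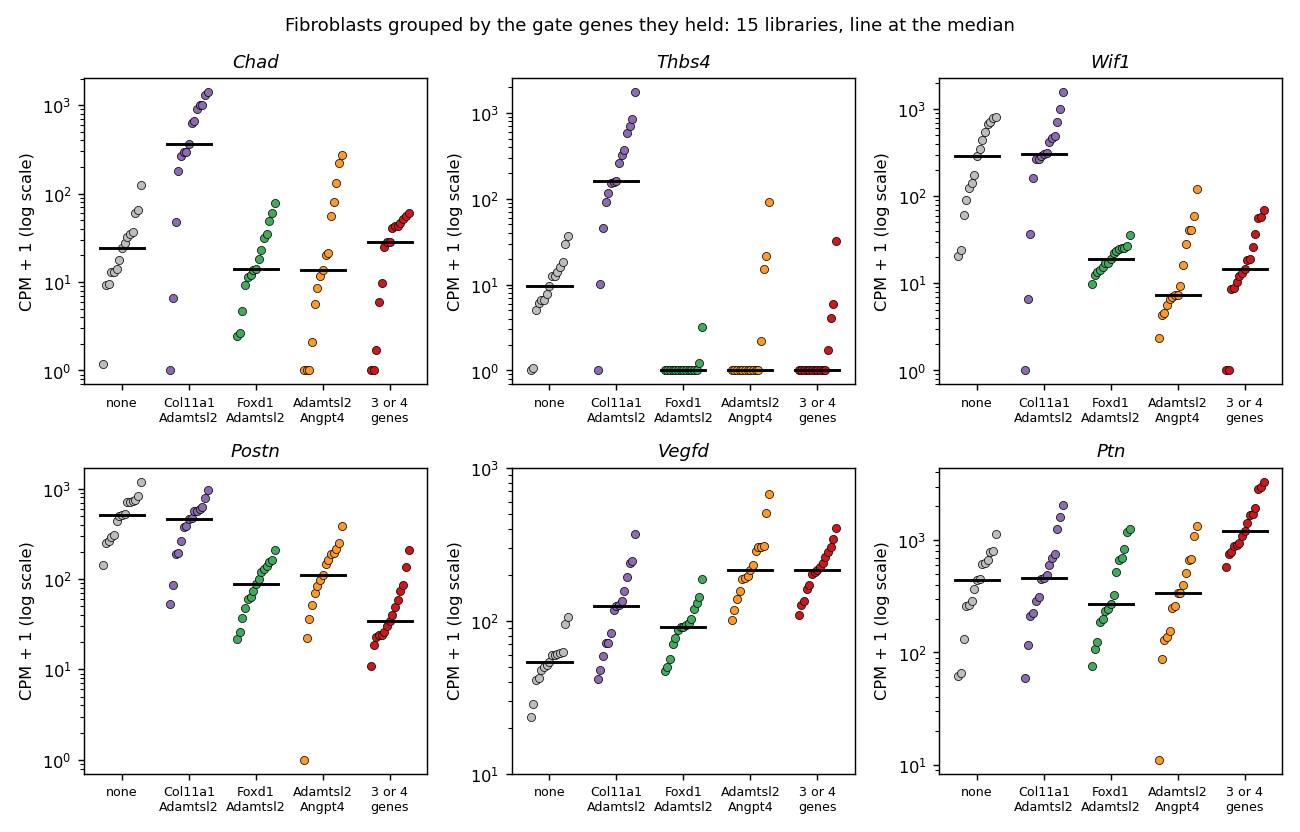
Levels of 6 genes in fibroblasts grouped by the gate genes they held, as CPM + 1 on a log axis, with a point for each of 15 libraries and a line at the median. Chad and Thbs4 stood high in cells with Col11a1 and Adamtsl2 (medians of 361 and 158 CPM), while Ptn stood high in cells with 3 or 4 gate genes (1198 CPM).

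Ptn, the label gene that the gate does not use (chr6:36714929-36810220, minus strand), followed the number of gate genes only at its upper end. In gated cells it lay between 242 and 1802 CPM with a median of 654, and in other fibroblasts between 66.8 and 749 CPM with a median of 383, and gated cells were higher in 13 of 15 libraries. The ranges overlapped broadly, and 34.5% of gated cells held a UMI of Ptn. Cells with no gate gene had a median of 444 CPM over the 15 libraries, cells with Foxd1 and Adamtsl2 only 271 CPM, and cells with 3 or 4 gate genes 1198 CPM. The last were above cells with no gate gene in 13 of 15 libraries and above the Col11a1 pair in 15 of 15. Ptn had been named as a marker of these cells from the same data, so it is given without a test.

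The share of fibroblasts that were gated was compared between genotypes at 18 weeks. In Smad3+/+ libraries it was 18.5%, 19.7%, 22.4%, 28.1% and 33.3%, a mean of 24.4% ± 6.20 (SD, n = 5). In those labelled Smad3SmKO it ranged from 2.04% to 31.1% with a median of 21.3%, a mean of 17.3% ± 10.8 (SD, n = 7). The groups overlapped over most of their range, and the 2 lowest shares were those of the Smad3SmKO replicates that stood apart: replicate 6 with 235 of 5505 cells (4.27%, Wilson 95% binomial interval 3.77% to 4.84%) and replicate 7 with 4 of 196 (2.04%, 0.796% to 5.13%). Intervals on counted cells or UMIs cover counting error only. The difference of the means was -7.07 percentage points, which an exact two-sided permutation test over libraries did not separate from the spread (p = 0.230, n = 5 and 7, smallest possible p 0.00126). Within batches it was -4.80 points in batch 1, -18.1 in batch 2, +8.64 in batch 3 and -14.8 in batch 6. Permuting within batches, which allows only 36 splits, gave an exact p of 0.111. The difference without replicate 7 was -4.52 points and without replicate 6 it was -4.89 points.

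A deeper cell has more chances to show a UMI of a gate gene, so the share was also taken with every cell thinned to 2000 UMIs. In Smad3+/+ libraries of 18 weeks the mean thinned share was 4.89% ± 1.83 (SD, n = 5). In those labelled Smad3SmKO it came to 3.09% ± 2.01 (SD, n = 7), a difference of -1.80 points (exact two-sided permutation p = 0.149). Permuting within batches, over 36 splits, gave an exact p of 0.0556 and was added after the data had been seen. Replicate 7 had 0 thinned gated cells of 196, which allows up to 1.92% by the Wilson interval. The 10-week libraries, with 11.5%, 11.8%, 6.73% and 13.9% before thinning, lay under 10 of the 12 libraries of 18 weeks, but after thinning their 2.16% to 4.85% fell inside the 18-week range of 0% to 7.37%. Batch and time cannot be told apart between the ages. At 10 weeks the 2 Smad3SmKO libraries (11.5% and 11.8%) lay between the 2 Smad3+/+ libraries (6.73% and 13.9%), and no test was made of 2 against 2.

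**Figure D2:**
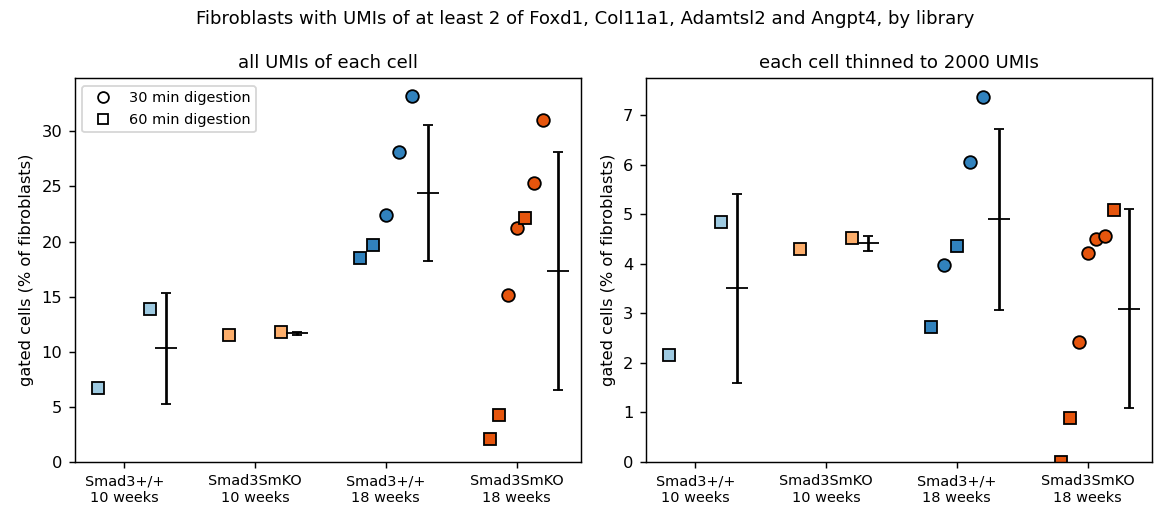
Gated cells as a percentage of fibroblasts in each library, with all UMIs (left) and with each cell thinned to 2000 UMIs (right). Circles were digested for 30 min and squares for 60 min, and bars give the mean and SD of a group. Smad3SmKO libraries of 18 weeks spread from 2.04% to 31.1% and overlap the Smad3+/+ libraries, which spread from 18.5% to 33.3%.

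Genes outside the gate were then compared between gated cells and other fibroblasts of the same library, by summing UMIs over each class and fitting edgeR's quasi-likelihood test with the library as a block. Gated cells were higher in Gpld1, Alpl, Dpep1 and Vegfd, and lower in Coch, Wnt16, Rspo3 and MHC class II genes. Of 12184 genes tested 103 (0.845%) were higher and 237 (1.95%) were lower by at least 1 on the log2 scale with a Benjamini-Hochberg adjusted p below 0.05. Without the size limit, 1664 (13.7%) were higher and 1702 (14%) were lower. The gate genes were themselves chosen with earlier results of these data known, so the p-values give how steady a difference was between libraries and not independent evidence for the group. Against other fibroblasts matched in depth cell by cell, 75 of 11187 genes (0.67%) were higher and 172 (1.54%) lower with the size limit, 1437 (12.8%) and 1453 (13%) without it. All log2 values below are gated cells minus other fibroblasts.

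Gpld1, which encodes a phospholipase that cuts glycosylphosphatidylinositol anchors, had the largest rise by the rule for named genes. It had a median of 26.7 CPM in gated cells, with a range of 14.4 to 54.4, and of 8.88 CPM in other fibroblasts, with a range of 1.87 to 12.8, so that the classes did not overlap (log2 difference 1.95, SE 0.11, adjusted p = 6.0e-11). Membrane-bound enzymes were among the other named rises. Alpl, tissue-nonspecific alkaline phosphatase, had a median of 80.8 against 26.3 CPM (1.42, SE 0.09, adjusted p = 5.5e-10), Dpep1, a membrane dipeptidase that cleaves glutathione products and leukotrienes, of 1419 against 573 CPM (1.29, SE 0.06, adjusted p = 1.1e-11), and Mme, the peptidase neprilysin, of 45.5 against 24.2 CPM (1.32, SE 0.09, adjusted p = 1.6e-09). Dpep1 was the most abundant of these, at 1000 CPM or more in the gated cells of every library and at 371 to 1068 CPM in other fibroblasts. Hsd11b1, which regenerates active glucocorticoid from its inactive form, had a median of 377 against 122 CPM (1.27, SE 0.09, adjusted p = 3.1e-09).

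Vegfd, a ligand of the lymphatic and endothelial VEGF receptors, had a median of 160 CPM in gated cells, range 79.0 to 343, and of 67.0 CPM in other fibroblasts, range 26.0 to 122 (1.34, SE 0.10, adjusted p = 3.4e-09). Chrdl1, a secreted antagonist of BMP ligands, had 34.4 against 11.9 CPM (1.42), Flt3l, the growth factor of dendritic cells, 83.3 against 37.3 CPM (1.23), and Fgl2, a fibrinogen-like protein with roles in coagulation and immunity, 977 against 416 CPM (1.25). Gfra2, the co-receptor for neurturin, was at 177 against 76.7 CPM (1.32). The matrix proteins Egflam, or pikachurin, and Smoc2 were at 35.7 against 12.9 CPM (1.58) and 665 against 290 CPM (1.24). Ccdc3, a secreted protein of fat and vessels, was at 150 against 59.8 CPM (1.28), and 6030408B16Rik, a locus without an assigned function, at 142 against 61.7 CPM (1.33), again without overlap between the classes. The rule that chose the 14 rises required a higher level in each of the 15 libraries. Against depth-matched cells, drawn from the same other fibroblasts, each was also higher in 15.

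The largest falls by the same rule were in Coch and Wnt16. Coch, which encodes cochlin of the extracellular matrix, had a median of 1.49 CPM in gated cells and of 35.7 CPM in other fibroblasts (-3.85, SE 0.25, adjusted p = 4.7e-10). Wnt16 stood at 1.90 against 27.1 CPM (-3.33, SE 0.22, adjusted p = 8.6e-10) and Rspo3, a secreted enhancer of Wnt signalling, at 7.12 against 48.6 CPM (-2.71, SE 0.15, adjusted p = 6.3e-11). The genes of MHC class II, by which cells present peptides to CD4 T cells, fell together: H2-Ab1 at 7.94 against 89.2 CPM (-2.74), H2-Eb1 at 6.99 against 76.0 CPM (-2.65), H2-Aa at 7.94 against 65.2 CPM (-2.53) and the invariant chain Cd74 at 30.0 against 228 CPM (-2.45). Cyp2e1, a cytochrome P450, was at 3.00 against 26.1 CPM (-2.49), Procr, the protein C receptor, at 18.6 against 66.7 CPM, and Plac8 at 4.73 against 23.7 CPM (-1.93). The rule required a lower level in each library here too. Against depth-matched cells H2-Ab1, H2-Aa, Cyp2e1 and Cd74 were lower in 14 of 15 libraries and the other 6 in 15. Summed over 9 leukocyte markers, among which Cd68, Lyz2 and C1qa, gated cells held a median of 116 CPM and other fibroblasts 143, higher in gated cells in 5 of 15 libraries, and none of the 6 leukocyte markers tested passed. Whether leukocyte RNA had a part in the MHC class II difference was not tested.

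**Figure D3:**
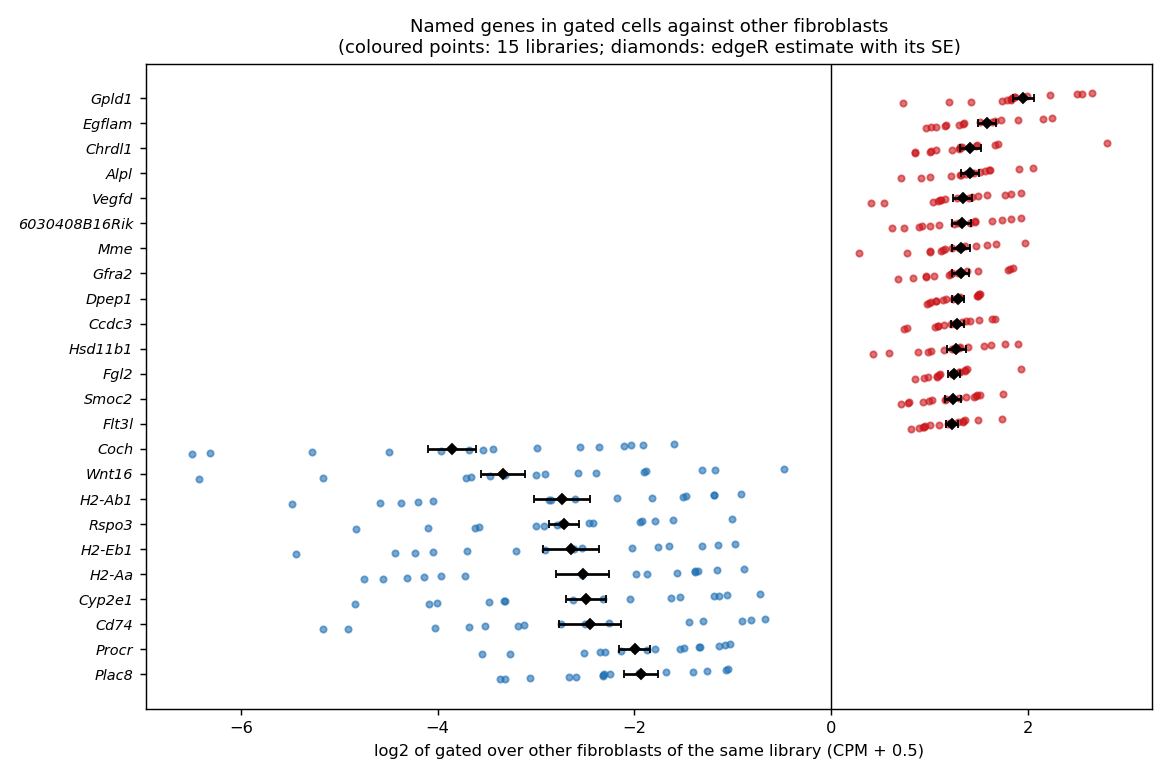
Log2 ratio of gated cells over other fibroblasts of the same library (CPM + 0.5) for the 24 named genes. Coloured points are 15 libraries, diamonds the edgeR estimates with their SE. By the rule that chose them, all points lie to the right of 0 for the 14 rises, from Gpld1 at 1.95 to Flt3l at 1.23, and to the left for the 10 falls, from Plac8 at -1.93 to Coch at -3.85.

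Counts over gene lists of gated against other fibroblasts were read against the 13.7% of all genes higher and the 14% lower at any size. Of 20 tested genes of fibrillar collagens and their processing 12 were higher and 2 lower, with a list median of 0.27 on the log2 scale against -0.01 for all genes, and none reached 1. Col1a1 and Col1a2, the chains of collagen I, were higher by 0.69 and 0.61 (medians of 3728 against 2662 CPM and 3429 against 2245 CPM), and Adamts2 and Pcolce, which process procollagen, by 0.67 and 0.62. Lox, the lysyl oxidase, was at 0.27 and did not pass, while Loxl2 fell by 0.48. Among 20 other collagens 9 were higher and 5 lower. With the size limit Col9a2 was higher (1.81) and Col13a1 (-1.89) and Col9a1 (-1.03) were lower, but these 3 stood at medians of 0.576 to 3.00 CPM, and Col9a1 was at +0.33 in libraries digested for 60 min. Of 20 elastic fibre and microfibril genes 7 were higher and 6 lower. Mfap4 was higher by 0.59 (2092 against 1368 CPM) and Efemp2, or fibulin 4, by 0.44, Ltbp1 fell by 0.37, and Eln, elastin itself, was at 0.10 and Fbn1, fibrillin 1, at -0.12, neither past the test.

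Of the proteoglycans and matricellular genes 19 of 31 were higher and 6 lower, with a median of 0.32. Fmod, fibromodulin, a regulator of collagen fibrils, had a median of 177 CPM in gated cells and of 69.4 CPM in other fibroblasts (1.08, SE 0.10, adjusted p = 6.1e-08). Podn was at 129 against 61.2 CPM (0.98), Ogn at 764 against 498 CPM (0.63) and Bgn, biglycan, at 5216 against 3865 CPM (0.40). The large proteoglycan Vcan, versican, was lower, at 151 against 362 CPM (-1.14, SE 0.10, adjusted p = 3.4e-08), as were Postn, at 143 against 390 CPM (-1.49), and Fn1, fibronectin, at 109.5 against 192 CPM (-0.61). Cilp2 (1.56), Acan (1.49) and Thbs4 (1.26) were higher by the test, but Thbs4 in only 9 of 15 libraries, and its 0.87 against depth-matched cells did not pass (adjusted p = 0.17). The call for Acan was lost by DESeq2 (adjusted p = 0.17), in the libraries of either digestion time alone and in 7 of 15 omissions of a library, with an adjusted p of up to 0.12 without Smad3SmKO replicate 6 of 18 weeks. In cells with at least 3 gate genes Thbs4 was at -2.61 and Cilp2 at -0.71 against other fibroblasts, so the sign turned with a stricter gate. Hapln1 was lower by 1.64 over all libraries and at +0.16 in those digested for 60 min.

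Wnt signalling genes were mostly lower, as the plot of gene lists shows. Of 18 tested members 12 were lower and 1 higher, with a list median of -0.61 against -0.01 for all genes. Besides Wnt16 and Rspo3, the ligand Wnt2 was lower, at 3.81 against 8.64 CPM (-1.08), and so were the inhibitors Wif1, at 70.3 against 193 CPM (-1.42), and Dkk2 (-1.91, with medians of 0.306 and 1.77 CPM). Axin2, a target that Wnt signalling induces, stood at 3.03 against 9.02 CPM (-1.52, SE 0.22, adjusted p = 1.9e-05). In libraries digested for 60 min Axin2 (-0.86) and Wif1 (-0.40) did not pass. The member that was higher was Sfrp1, a secreted Wnt inhibitor, at 814 against 454 CPM (1.07, SE 0.07, adjusted p = 3.7e-10) in 15 of 15 libraries. Frzb and Sfrp2, related inhibitors, were at -0.08 and -0.34 and did not pass.

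BMP genes moved both ways, 6 of 24 higher and 8 lower, with a list median of 0.09 against -0.006 for all genes. The ligand Gdf10, also called Bmp3b, had a median of 487 CPM against 235 (1.12, SE 0.08, adjusted p = 3.0e-09) and Bmp4 of 119 against 81.1 CPM (0.54). Bmp5 (-1.84) and Bmp6 (-0.89) were lower, at medians of 1.45 to 8.98 CPM. Among the Id genes, which BMP signalling induces, Id2 was higher (263 against 165 CPM, 0.62) and Id4 lower (24.8 against 90.2 CPM, -1.90, SE 0.23, adjusted p = 2.1e-06), Id1 was at 0.16 (adjusted p = 0.042) and Id3 was at 0.11 and did not pass.

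**Figure D4:**
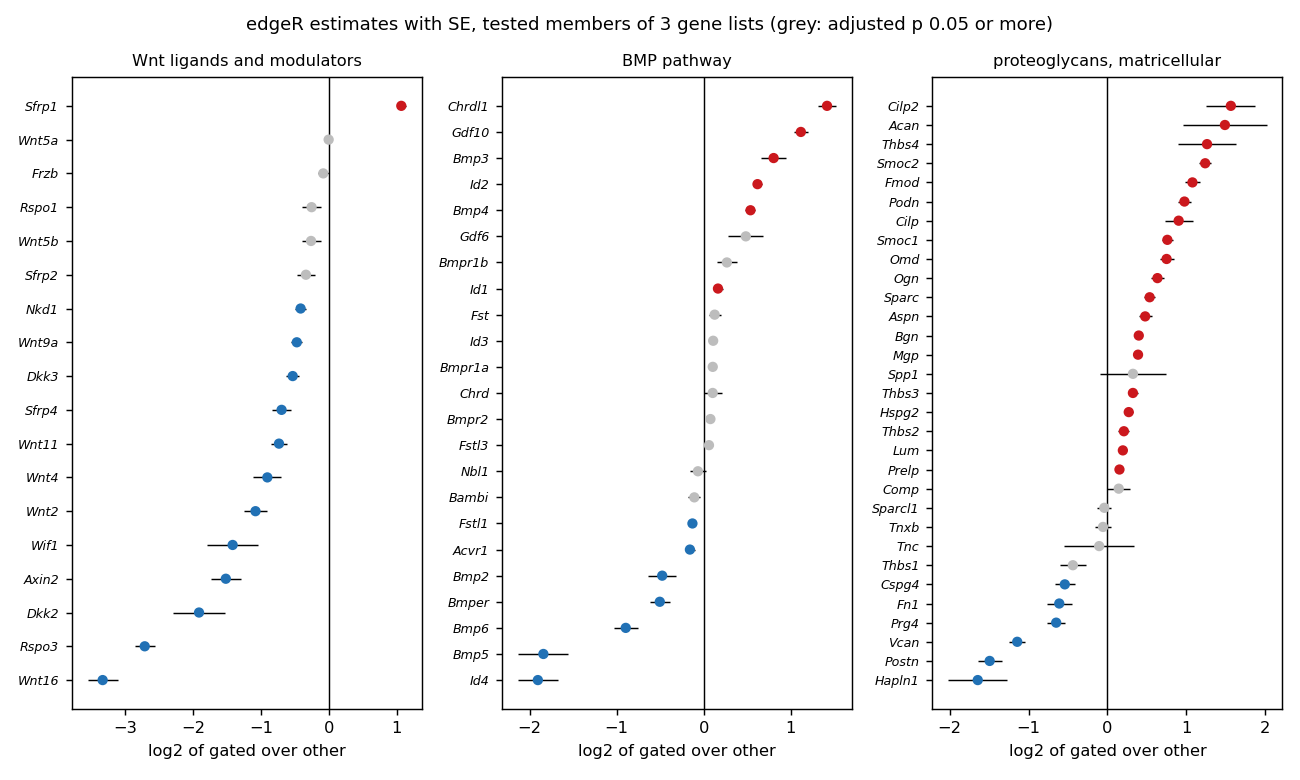
Log2 difference of gated cells minus other fibroblasts for tested members of 3 gene lists, with SE, leaving out 1 BMP gene. Red and blue points passed an adjusted p of 0.05, grey points did not. Wnt genes lie mostly to the left, with 12 of 18 lower, BMP genes on both sides, and proteoglycans mostly to the right, with 19 of 31 higher.

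Of 16 TGF-beta ligands, receptors and transducers 6 were higher and 3 lower, none by 1 on the log2 scale. Over all genes 13.7% were higher and 14% lower. The list median was 0.006, against -0.006 for all genes. Lrrc32, the anchor protein of latent TGF-beta, was at 61.5 against 27.1 CPM (0.96, SE 0.07, adjusted p = 3.6e-09), Smad3 at 22.6 against 17.3 CPM (0.45) and Tgfb2 at 44.8 against 66.1 CPM (-0.62). The receptors Tgfbr1 and Tgfbr2 were at -0.04 and -0.07 and did not pass. Of 17 target genes 6 were higher and 3 lower, with a list median of 0.06. Pmepa1, a target that feeds back on the pathway, was at 971 against 930 CPM (0.06, adjusted p = 0.45). Adamtsl2 aside, members of the fibrillin-binding Adamtsl family were at -0.28 (Adamtsl3) and -0.21 (Adamtsl4), which passed, and at 0.17 (Adamtsl1) and -0.03 (Adamtsl5), which did not.

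Among relatives of Angpt4, its receptor gene Tek was at 19.4 against 14.7 CPM (0.44) and Angpt1 at 30.6 against 21.5 CPM (0.41), both higher, while Angpt2 was at -0.10 and did not pass. Angptl7 was higher by 0.82. Mdk, encoding midkine, the only relative of pleiotrophin, was at 120 against 88.8 CPM (0.62, 13 of 15 libraries), and of 9 tested members of that list 2 were higher and 6 lower. The lower ones were receptors and co-receptors, with Sdc1, syndecan 1, at 20.2 against 40.1 CPM (-0.89) and Ptprz1 at -1.33, with medians of 0.315 against 1.75 CPM. Of 31 growth factors and receptors 12 were higher and 5 lower. Fgf7 was higher by 0.72, Pdgfd by 0.62 and Gas6, a ligand of Axl-family receptors, by 0.61 (1490 against 1017 CPM), whereas Fgf18 fell by 0.95 and the neurotrophin Bdnf by 0.79.

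The transcription factors of heart field and neural crest gave 6 higher and 9 lower of 29. Tcf21, a factor of cardiac and adventitial fibroblast precursors, was at 427 against 238 CPM (0.97, SE 0.07, adjusted p = 2.9e-09), and Twist2 at 74.6 against 41.1 CPM (0.81, SE 0.05, adjusted p = 5.5e-10) with no overlap between the classes. Msx1 fell by 0.75, Tbx20 by 0.52 and Dlx5 by 1.51, the last at medians of 1.44 against 4.34 CPM. None of 8 Hox genes passed the test. Heart valve genes were mostly lower, 11 of 18 against 3 higher, among them Sox9 (-0.30), Scx (-0.75) and Vcan, and Penk was higher by 0.61. Tendon and cartilage genes gave 8 higher and 3 lower of 17, with Chad at 75.1 against 41.4 CPM (0.79, adjusted p = 0.043), Fmod higher, and Sox9 and Scx, the factors that direct cartilage and tendon, lower.

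Other groups of fibroblasts had been named from the same data by their own genes, and gated cells were compared with depth-matched other fibroblasts for those. The clearest difference was for Hsd11b1, F3 and Vegfd: 65.0% of gated cells held at least 2 of these 3 genes, against 34.9% of matched cells, and gated cells were higher in 15 of 15 libraries. Seen from the other side, 30.1% of all fibroblasts with 2 of the 3 were gated. F3 had a median of 579 CPM in gated cells and of 269 CPM in other fibroblasts (0.95, SE 0.08, adjusted p = 3.6e-08). For Tnfrsf11b, Dio2 and Hhip the shares were 20.2% and 16.1%, higher in 11 of 15 libraries, and for Chad with Thbs4 1.11% and 0.606%, higher in 10. Cells with Coch and Wif1 were rare in the gate, 0.524% against 6.58% (higher in 0 of 15 libraries), as were cells with Dpp4 and Smpd3, 0.180% against 1.18% (1 of 15). For Has1, Spon2 and Cxcl5 the shares were 6.63% and 7.27%, higher in gated cells in 4 of 15 libraries, for Cnmd, Inmt and Ggt5 3.41% and 3.55% (6 of 15), and for Ifit3 with Isg15 9.21% and 12.4% (3 of 15). No test was made of these shares.

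Markers of cell types were also compared between the classes. Both classes were chosen by Dcn, which had a median of 12645 CPM in gated cells and of 12547 CPM in other fibroblasts. Of 11 further fibroblast markers 6 were higher in gated cells and 2 lower. Pdgfra was higher (238 against 190 CPM, 0.34) and Dpt lower (536 against 753 CPM, -0.43). Endothelial markers were low, with a summed level over 8 genes of 10.4 to 31.4 CPM in gated cells and a median of 58.2 CPM in other fibroblasts, and all 5 that could be tested were lower, such as Pecam1 (-1.48) and Emcn (-2.33). Smooth muscle markers other than Myh11 summed to 341 to 4327 CPM, median 1727, against a median of 1964 CPM, higher in gated cells in 6 of 15 libraries, and 1 of 8 passed with the size limit (Cnn1, -1.18). The pericyte marker Rgs5 was lower (6.99 against 48.8 CPM, -1.76), while Kcnj8 (0.46) and Abcc9 (0.32), channel subunits of pericytes, were higher. Heart muscle markers had a median sum of 16.2 against 30.7 CPM, and Tnnt2 was lower by 1.27, or at -0.52 and not past the test without cells that may be doublets. Schwann cell markers had a median sum of 5.50 CPM, the mesothelial markers Msln and Lrrn4 were at 0, and cell cycle genes gave no call among 6 tested. Of 20 immediate early genes, which respond to digestion, 5 were higher and 4 lower, with Atf3 at -0.39 the furthest from 0 and a median sum of 13790 against 14330 CPM. Cells that may be doublets, by markers of another type, made up 4.46% of gated cells and 8.67% of other fibroblasts.

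The next question was whether gated cells, which the deletion does not target, differed between genotypes at 18 weeks. With batch as a term, 0 of 12262 genes (0%) passed edgeR's adjusted p of 0.05 in 5 Smad3+/+ and 6 Smad3SmKO libraries, and 542 (4.42%) had an unadjusted p below 0.05. Batch 5 held only Smad3SmKO replicate 5 in this fit, so the estimate rests on batches 1, 2, 3 and 6. DESeq2 called 6: Ltbp2, Thbs1, Mtss1, Rab6b, Retnlg and Fhl2. The genes with the smallest p-values by edgeR are given with their values. Ltbp2, a microfibril protein related to the latent TGF-beta binding proteins, stood at 65.2, 77.7, 98.4, 145 and 194 CPM in Smad3+/+ and at 126, 153, 171, 205, 225 and 243 CPM in the Smad3SmKO libraries. Pooled over batches the groups overlapped, and the log2 difference was 0.92 (SE 0.14, adjusted p = 0.060). Within batches 1, 2, 3 and 6 the Smad3SmKO libraries lay above the Smad3+/+ ones for Ltbp2, Thbs1 and Mtss1. These genes were picked by that same fit. In other fibroblasts Ltbp2 was at 0.68 in a fit over all 16 libraries. The difference between the effects, over the 15 libraries with sums of gated cells, was 0.20 (SE 0.19, adjusted p = 1).

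Thbs1, thrombospondin 1, an activator of latent TGF-beta, stood at 18.9, 22.7, 110, 120 and 125 CPM in Smad3+/+ and at 66.4, 79.0, 101.2, 195, 348 and 349 CPM in the Smad3SmKO libraries (1.58, SE 0.29, adjusted p = 0.30). Mtss1, a regulator of actin at membranes, stood at 5.40 to 12.6 CPM with a median of 7.15 in Smad3+/+ and at 7.12 to 27.8 CPM in Smad3SmKO libraries (1.13, SE 0.17, adjusted p = 0.060), and at 10 weeks its difference was -1.01. Rab6b (-4.76, adjusted p = 0.060) stood at 0.794, 0.859, 0.946, 8.50 and 9.26 CPM in Smad3+/+ and at 0 to 0.647 CPM in the Smad3SmKO libraries of the fit. These groups did not overlap, and Smad3+/+ replicates 1 and 2 stood far above the rest, with 113 and 76 UMIs. The remaining Smad3+/+ libraries held 5 or 6 UMIs and the Smad3SmKO libraries 0 to 2, so the gap between them was of few UMIs. In other fibroblasts Rab6b was also high in those replicates (11.6 and 12.8 CPM) and in Smad3SmKO replicate 7 (9.69 CPM). The log2 difference there was -1.85. Slpi (3.91) and Retnlg (4.08, both adjusted p = 0.37) are expressed by neutrophils. Slpi stood at 0 to 3.15 CPM in Smad3+/+ and at 0 to 22.9 CPM in Smad3SmKO libraries, with medians of 0.224 and 2.31. Retnlg stood at 0 to 0.430 and at 0 to 17.3 CPM, with medians of 0.315 and 3.53. Leukocyte markers moved beside them. The summed level of these markers had a median of 24.1 CPM in the gated cells of Smad3+/+ and of 175 CPM in those of Smad3SmKO libraries. Its ranges were 12.1 to 117 and 42.7 to 441. The part of leukocyte RNA in these values was not tested.

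**Figure D5:**
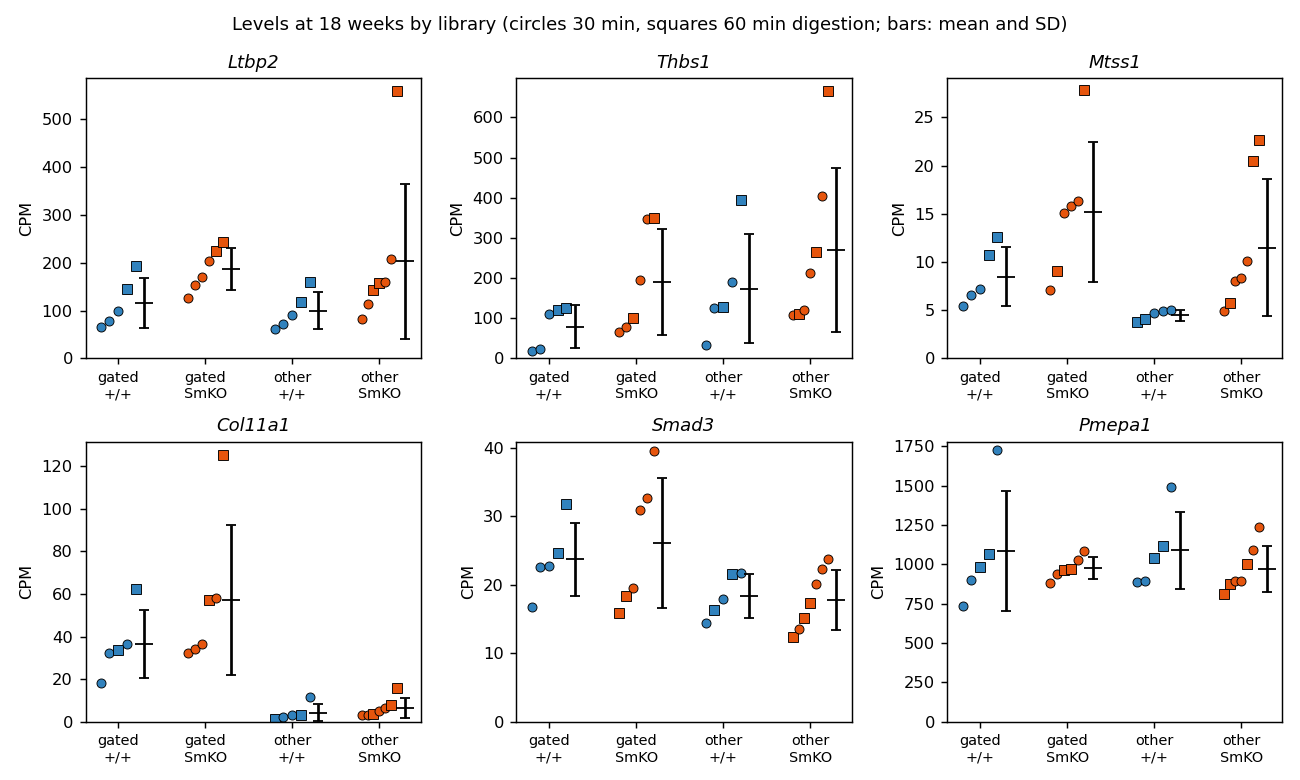
CPM by library at 18 weeks of 6 genes in gated cells and in other fibroblasts, for Smad3+/+ (blue) and Smad3SmKO (orange) labels, with group means and SD. Smad3SmKO replicate 7 is left out of the gated cells and shown in other fibroblasts. Ltbp2 leans higher in Smad3SmKO libraries in gated cells (126 to 243 against 65.2 to 194 CPM). Pooled over batches, the groups overlap in every panel.

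Smad3 itself stood at 16.8, 22.6, 22.7, 24.6 and 31.7 CPM in the gated cells of Smad3+/+ and at 15.9 to 39.5 CPM in those of Smad3SmKO libraries (0.25, SE 0.24, adjusted p = 1), and Pmepa1 at 735 to 1728 and 884 to 1082 CPM (-0.14, SE 0.18, adjusted p = 1). The gate chose the cells by Foxd1, Col11a1, Adamtsl2 and Angpt4, so their levels in gated cells are given as a description, with no test. Col11a1 stood at 18.2, 32.1, 33.9, 36.3 and 62.1 CPM in Smad3+/+ and at 32.4, 34.1, 36.7, 57.3, 58.1 and 125 CPM in Smad3SmKO libraries (0.77), with replicate 6 highest and the groups overlapping. The log2 differences of Foxd1, Adamtsl2 and Angpt4 were -0.06, -0.16 and -0.42. Ptn, which the gate did not use, had one of -0.42 (adjusted p = 1). The 103 genes higher in gated cells had a median genotype difference of -0.01 and the 180 lower genes that could be tested one of -0.001, against 0.005 for all genes. Of 18 tendon and cartilage genes 15 had a positive difference, with a median of 0.51, and of 8 Hox genes 8, with a median of 0.52, but none was called. At an unadjusted edgeR p below 0.05, which 4.42% of all genes had, 4 of the former were higher and 1 lower, and 3 of the latter were higher. Beside them, 9 of 10 smooth muscle markers had a positive difference, with a median of 0.48. So did 5 of 6 pericyte markers (0.39) and 5 of 7 leukocyte markers (1.94). At the same unadjusted p, 0 smooth muscle, 1 pericyte and 1 leukocyte marker were higher, and 0 were lower. The part of these cell types in the tendon, cartilage and Hox values was not tested.

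At 10 weeks, 2 Smad3+/+ libraries were set against 2 labelled Smad3SmKO. By the labels, both Smad3+/+ libraries carried the Myh11-GFP tracer and both Smad3SmKO libraries carried none. Tracer and genotype labels cannot be told apart at this age. Again 0 of 12262 genes (0%) passed edgeR's adjusted p, 395 (3.22%) had an unadjusted p below 0.05, and DESeq2 called 3. Ltbp2 stood at 145 and 180 CPM in Smad3+/+ and at 170 and 201 CPM in Smad3SmKO libraries (0.21, SE 0.22, adjusted p = 1.00), and Thbs1 at 46.3 and 141 against 85.7 and 196 CPM (0.59, SE 0.46, adjusted p = 1.00). Whether the genotype difference changed between 10 and 18 weeks was not tested.

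The genotype effect in gated cells was last set against that in other fibroblasts of the same libraries, by a term for the difference of the effects. Of 14001 genes tested 3 (0.0214%) passed by edgeR, 716 (5.11%) had an unadjusted p below 0.05, and DESeq2 called 0. All 3 were genes of antibody-secreting plasma cells: the light chain Igkc (-5.87, SE 0.32), the heavy chain Ighg2c (-9.18, SE 0.65) and Jchain, which joins antibody units (-5.50, SE 0.66), with adjusted p-values of 2.4e-06, 0.0059 and 0.026. Of 27952 UMIs of these genes in the gated cells of Smad3+/+ replicate 5, 27515 (98.4%) were in 1 cell that met the gate. Without that library none of the 3 genes was called and Osr1 was. Without Smad3SmKO replicate 6, where gated cells held 52 UMIs of Igkc and other fibroblasts 1111, none of the 3 was called either (Igkc at -0.98, adjusted p = 1) and Tagln and Osr1 were. In other fibroblasts alone, fitted over all 16 libraries, 0 of 14331 genes (0%) passed at 18 weeks by edgeR. There 327 (2.28%) had an unadjusted p below 0.05, and DESeq2 called 3.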

How the data were processed

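Thoracic aortas were profiled by droplet single-cell RNA sequencing with 3' chemistry, 1 library per mouse. The deposited values were raw UMI counts per gene and barcode. The authors had produced these counts with Cell Ranger from alignments to mm10 plus a GFP sequence. The submitters' notes name Cell Ranger 6 and Seurat 4. The matrices listed 31055 features. Reads were not used here.

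The limits on cells were those of the study's methods. Members and gene lists were chosen with earlier results of these data known. UMIs were summed per library and class and tested in edgeR 4.0.16 (R 4.3.3; filterByExpr, TMM, glmQLFit, glmQLFTest) with Benjamini-Hochberg adjustment. A library needed at least 10 gated cells, except in the genotype fit of other fibroblasts alone, which used all 16. The block was the library for gated against other fibroblasts, and batch was a term for genotype. CPM are the sums per 1000000 UMIs of that class and library. For depth-matched cells, each gated cell was paired with the other fibroblast of its library nearest in UMIs. Shares were tested by an exact permutation test over libraries (scipy 1.17.1). Named genes were the 14 largest rises and 10 largest falls of at least 1 on the log2 scale, with at least 30 CPM in the higher class and 1 sign in all libraries, leaving out gate, mitochondrial, ribosomal, sex-linked and immunoglobulin genes, then called members of the lists. For genotype they were called genes or else the 6 smallest p-values, with Smad3, Pmepa1 and the label genes. The values of other list members printed were picked after they had been seen.

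Beyond the upper limits on genes and UMIs, no doublet caller was run. As an alternative, cells with at least 2 UMIs of a marker of another cell type, such as Pecam1, Cdh5, Ptprc or Myh6, or of Acta2 and Myh11 both, were left out. Counts over a list include 1 BMP gene whose own result is not reported here. Other alternatives were DESeq2 1.42.0, its size factors, no filter on low counts, at least 3 gate genes, either digestion time and leaving out each library. On simulated data with 200 genes changed 2-fold, the fit of gated against other fibroblasts recovered 100% with 15 false calls of 12432, the genotype fit of 18 weeks 87.0% with 2 of 12201, and the difference of effects 25.5% with 2 of 13634. The simulation gave all genes the same spread and all libraries the same expression profile, without batch effects. Only genes above a limit on CPM were changed. These percentages are therefore not the power of the fits on the real libraries. Coordinates are those of GENCODE vM21 on mm10.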

Additional observations from a re-analysis of the deposited data

Results flagged for a closer look

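Single libraries lay far from the rest of their group in 8 of 36 groups of gene levels and cell shares examined, by the gap to the nearest library over the group's range. Most of the 8 came from Igkc, Ighg2c and Jchain. These genes were examined because the difference of effects had called them, so the count cannot be set against a chance rate. In Smad3+/+ replicate 5 of 18 weeks, gated cells held 3931 CPM of Igkc (next library 14.8), 252 CPM of Ighg2c (next 0) and 226 CPM of Jchain (next 1.59), with 98.4% of the UMIs of these 3 genes in 1 cell. Slpi stood at 3.15 CPM in the same library (next 0.286). In Smad3SmKO replicate 6 of 18 weeks Igkc stood at 25.9 CPM (next 0.102), Ighg2c at 0.497 CPM (next 0.102) and Jchain at 3.48 CPM (next 0.232), and Col11a1 at 125 CPM (next 58.1). The genotype effect differed between gated cells and other fibroblasts for Igkc (-5.87), Ighg2c (-9.18) and Jchain (-5.50), by the term for the difference of effects. Outside the comparisons, the GFP feature stood at 0.928 CPM (4 UMIs) in the gated cells of Smad3SmKO replicate 5 of 18 weeks, a library labelled with the tracer, and at 0 in the gated cells of all libraries labelled without it. Other fibroblasts of the 10-week Smad3SmKO libraries, labelled without tracer, held 9 and 16 UMIs of GFP. No explanation of these values was tested.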

How the results depend on the processing

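The difference in the share of gated cells stayed negative under every alternative run, all on the same libraries. It lay between -9.60 points (60 min libraries alone) and -1.55 points (60 min libraries alone, thinned), and between -9.36 and -4.52 points when a library was left out. Thinned shares are smaller, so these differences are not on 1 scale. The smallest exact permutation p of these settings was 0.0556 (thinned, permuted within batches). Of gated cells against other fibroblasts, 340 genes were called with the size limit, and 324 to 382 when a library was left out (98 to 114 higher, 224 to 268 lower). Without the filter on low counts 858 were called (164 higher, 694 lower), and with 30 min libraries alone 377 were lower. Of the 340, 218 (64.1%) were also called against depth-matched cells, where fewer genes were tested. With 60 min libraries alone 194 (57.1%) of them were called, with 30 min libraries alone 283 (83.2%), and with at least 3 gate genes 248 (72.9%). Of 1221 values of 52 named genes under alternatives, 1190 kept the call, and for called genes its direction, 27 missed the threshold and 4 turned. Those were Hapln1 (0.16) and Col9a1 (0.33) with 60 min libraries alone, and Cilp2 (-0.71) and Thbs4 (-2.61) with at least 3 gate genes. Of the genotype effect at 18 weeks, with 0 calls, DESeq2 made 6, no filter 163, 60 min libraries alone 27, and leaving out single libraries 0 to 8, the most without Smad3SmKO replicate 6 (8). At 10 weeks DESeq2 made 3 calls and no filter 46, and leaving out single libraries 0 to 0. The difference of effects, with 3 calls, gave 0 by DESeq2, 215 without the filter, 5 with at least 3 gate genes, 1 without the gated by batch terms, 1 against depth-matched cells (added after seeing the data) and 1 to 8 when a library was left out, with 8 without Smad3+/+ replicate 1, 7 without Smad3SmKO replicate 2 2 (Tagln and Osr1) without Smad3SmKO replicate 6 and 1 (Osr1) without Smad3+/+ replicate 5. Without either of the last libraries Igkc, Ighg2c and Jchain were not called. With at least 3 gate genes Igkc stood at 3.43, Ighg2c at 3.81 and Jchain at 2.07, and when a library was left out Jchain ranged from -5.57 to 0.22, the last without Smad3+/+ replicate 5. In other fibroblasts DESeq2 made 3 calls. The causes were not tested. Gated and other fibroblasts were blocked by library in their fit. Between genotypes no pairing of mice by number could be tried, since the labels give no replicate numbers. Depth limits the gate: at medians of 4318.5 to 26326 UMIs per fibroblast, cells with few transcripts of the gate genes fall among the others.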
